A study of Mus musculus with 16 samples.

Results

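The globin genes Hba-a1, Hba-a2, Hbb-bs and Hbb-bt, and Alas2, the gene of the erythroid form of 5-aminolevulinate synthase, were followed in the proximal jejunum of irradiated mice. They were taken by symbol, matched to the Ensembl gene IDs of the files, and make 5 of the 37620 genes listed and 5 of the 16558 genes that passed the filter on low counts. The animals were male CBA/J mice, 8 weeks old, and no allele or transgene is named. RNA of proximal jejunum was sequenced in 16 libraries, 4 in each of 4 groups: 8.5 Gy of gamma radiation on the methionine adequate diet, 0 Gy on the methionine adequate diet, 8.5 Gy on the methionine supplemented diet (300%), and 0 Gy on the methionine supplemented diet. The design names 6 days of diet, and the labels do not say how long after irradiation the tissue was taken. All libraries were depleted of ribosomal RNA, and the labels name no depletion of globin RNA. The question put to the 5 genes was how much red cell RNA the tissue held after irradiation and whether the diet altered it.

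Hemoglobin carries oxygen in red cells and is a tetramer of alpha and beta globin chains, each with a heme group. Alpha globin is made from Hba-a1 and Hba-a2 and beta globin from a pair of adult genes, which the reference strain's annotation names Hbb-bs and Hbb-bt, and ALAS2 catalyses the first step of heme synthesis in erythroid cells. The jejunum makes no red cells, so these transcripts reach it mainly in blood, where young red cells, the reticulocytes, still carry RNA and mature red cells have lost most of it. The erythroid precursors of the bone marrow are known to be sensitive to ionizing radiation, and the number of reticulocytes in blood follows their output.

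The paired globin genes are close copies, which limits how far their counts can be separated. Over 429 coding bases, Hba-a1 and Hba-a2 differ at 1 base in the reference transcripts, and over 444 coding bases Hbb-bs and Hbb-bt also differ at 1 base. The 41 coding bases around each difference are printed from the GENCODE M21 transcripts to show how little separates the copies, with the differing base in capitals and positions counted from the first base of the start codon. The alpha pair runs from coding base 361 to 401 and the beta pair from 397 to 437.
Hba-a1: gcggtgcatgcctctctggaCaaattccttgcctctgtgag
Hba-a2: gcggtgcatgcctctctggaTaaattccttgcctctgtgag
Hbb-bs: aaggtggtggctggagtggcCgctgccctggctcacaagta
Hbb-bt: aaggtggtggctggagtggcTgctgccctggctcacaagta
The untranslated ends differ more. Of the 30-base windows of the longest GENCODE M21 transcript of Hba-a1, 71.5% also stand in Hba-a2, and 91.2% of those of Hba-a2 stand in Hba-a1. The files used other models of Hba-a1, so its shares describe the reference transcripts only. Hbb-bs shares 66.9% of its windows with Hbb-bt, and Hbb-bt 59.5% of its windows with Hbb-bs. The split within a pair is therefore an estimate of the counting program, and the sum over a pair is firmer. The reference genome is that of C57BL/6J, and CBA/J is known to carry another haplotype of the beta globin genes, so the beta counts are those of CBA/J reads assigned to the Hbb-bs and Hbb-bt models.

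The promoters of the 5 genes are printed as a description of their sequence. The 250 bases before each annotated start come from RefSeq on GRCm38.p6, with every GATAA and CACCC in capitals, on either strand (TTATC and GGGTG on the other strand). GATA factors and the Kruppel-like factor KLF1, both erythroid regulators, are known to bind sequences that contain these letters. The Hba-a2 window is left out because it shares a stretch of 247 bases with that of Hba-a1. The windows lie at chr11:32283422-32283671 on the plus strand for Hba-a1, at chr7:103827929-103828178 on the minus strand for Hbb-bs, at chr7:103813924-103814173 on the minus strand for Hbb-bt and at chrX:150547167-150547416 on the plus strand for Alas2.
Hba-a1: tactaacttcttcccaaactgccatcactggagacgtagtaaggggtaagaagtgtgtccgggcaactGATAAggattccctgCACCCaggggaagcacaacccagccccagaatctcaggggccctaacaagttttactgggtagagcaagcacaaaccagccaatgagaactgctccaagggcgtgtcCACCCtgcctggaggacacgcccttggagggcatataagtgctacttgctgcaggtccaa
Hbb-bs: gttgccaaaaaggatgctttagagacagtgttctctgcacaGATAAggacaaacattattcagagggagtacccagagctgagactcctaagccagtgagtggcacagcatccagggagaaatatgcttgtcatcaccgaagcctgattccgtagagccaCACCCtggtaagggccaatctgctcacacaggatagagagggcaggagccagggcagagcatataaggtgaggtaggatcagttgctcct
Hbb-bt: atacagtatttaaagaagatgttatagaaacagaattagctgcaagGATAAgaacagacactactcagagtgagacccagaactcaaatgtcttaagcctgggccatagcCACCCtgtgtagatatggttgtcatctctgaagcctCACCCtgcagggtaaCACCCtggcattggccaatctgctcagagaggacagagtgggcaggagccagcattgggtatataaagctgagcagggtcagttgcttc
Alas2: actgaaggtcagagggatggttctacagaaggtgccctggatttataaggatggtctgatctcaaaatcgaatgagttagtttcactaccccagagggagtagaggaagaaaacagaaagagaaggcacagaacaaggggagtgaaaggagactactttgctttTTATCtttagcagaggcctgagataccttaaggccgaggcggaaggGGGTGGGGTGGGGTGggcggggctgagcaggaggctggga
GATAA stood in the windows of all 5 genes, against 23.0% of 27025 promoter windows of the same length. The windows of Hba-a1 and Hba-a2 are nearly the same sequence, so the 5 windows do not count as 5 independent ones. CACCC stood in all 5 as well, against 51.3% of promoter windows, and both together in 10% of them. TATAA stood in all 5 windows and in 23.5% of all windows. CCAAT stood in the 4 globin windows, was not found in the Alas2 window, and stood in 34.5% of all windows. These matches are letters in windows of the reference strain, not of CBA/J, and were not tested as binding sites. Whether promoter control had a part in the falls was not tested.

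Sequencing depth lay between 2.57 and 15.51 M counts per library, and 3 libraries held under 4 M: replicate 2 of the irradiated and replicate 1 of the unirradiated group on the adequate diet, and replicate 1 of the irradiated group on the supplemented diet. Replicates are separate libraries, and the labels do not tie them to named animals, so the spread between them may be partly technical. Levels below are counts per M counts of a TMM-scaled library total (CPM), and fold changes are log2 values with their standard error (SE) from edgeR's quasi-likelihood test, adjusted by Benjamini-Hochberg over all 16558 genes.

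All 4 globin genes and Alas2 fell after 8.5 Gy on both diets. On the adequate diet the log2 fold changes of 3 globins lay between -7.29 and -5.35, Hbb-bt was at 0 in all irradiated libraries, and Alas2 fell by 2.35. With supplementation the log2 fold changes of the globins lay between -5.14 and -3.75, and Alas2 fell by 1.64. That made 5 of 5 genes called lower at an adjusted p under 0.05 on the adequate diet, where 6.58% of all tested genes were called lower, and 5 of 5 on the supplemented diet, where 7.21% were. The median gene did not shift, with a median log2 fold change of 0.01 on either diet. In bulk tissue, fewer cells of a type and less RNA per cell cannot be told apart.

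Hba-a1 had 1.77, 2.68, 1.54 and 1.29 CPM in the irradiated libraries on the adequate diet, against 47.5, 75.4, 82.5 and 56.7 CPM in the unirradiated ones. The groups lay far apart, and the highest irradiated library came from the shallow library with 6.46 counts. It fell by 5.35 ± 0.40 (SE; adjusted p = 1.48e-06), which is 40.9-fold lower. On the methionine supplemented diet Hba-a1 had 2.64, 2.55, 5.15 and 1.65 CPM in irradiated libraries and 36, 51.2, 59.1 and 22.2 CPM in unirradiated ones. Again no libraries overlapped, and replicate 3 of the irradiated group was the highest of its group. Hba-a1 fell by 3.75 ± 0.35 on the log2 scale there (edgeR adjusted p = 1.46e-05), and was 13.4-fold lower.

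Hba-a2, the alpha gene with the higher counts in unirradiated tissue, had 2.35, 0.224, 0 and 0.293 CPM in irradiated libraries on the adequate diet, against 98.6, 168, 132 and 114 CPM in unirradiated ones. A single irradiated library, replicate 1, held most of what was left, with 22.2 counts against at most 3.52 in the other 3. Hba-a2 fell by 7.29 ± 1.06 (edgeR adjusted p = 0.000875). With the supplemented diet it had 0.886, 0.534, 7.45 and 0 CPM in irradiated libraries and 42.3, 115, 122 and 33.2 CPM in unirradiated ones. Replicate 3 of the irradiated group stood above its group, still below every unirradiated library. Hba-a2 fell by 4.93 ± 0.88 there (edgeR adjusted p = 0.00266), and its log2 fold change was -7.61 without that library.

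Hbb-bs, the beta globin gene with the most counts of the 5 genes in unirradiated tissue, had 3.27, 0.415, 0.922 and 0.916 CPM in irradiated libraries on the adequate diet, against 188, 313, 233 and 178 CPM in unirradiated ones. The irradiated libraries rested on 31, 1, 9 and 11 counts. Hbb-bs fell by 7.20 ± 0.81 (edgeR adjusted p = 0.000133). In mice on the supplemented diet it had 2.05, 2.89, 11.7 and 0.758 CPM in irradiated libraries and 91, 191, 161 and 47.7 CPM in unirradiated ones. Replicate 3 of the irradiated group was again the highest, and no libraries overlapped. Hbb-bs fell by 4.68 ± 0.69 there (edgeR adjusted p = 0.000744), and its log2 fold change was -5.97 without that replicate.

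Hbb-bt, the less abundant beta globin gene, had 0 counts in all 4 irradiated libraries on the adequate diet, against 36.3, 25.9, 24.5 and 10.1 CPM in the unirradiated ones. Over the pooled group, 0 counts allow up to 3 counts or 0.0891 CPM, which puts the gene at least 240-fold lower (edgeR adjusted p = 0.0023). This limit covers counting error only. Under supplementation Hbb-bt had 0, 0, 1.67 and 0.0174 CPM in irradiated libraries and 6.20, 28, 28.2 and 15.2 CPM in unirradiated ones. Replicate 3 carried 24.2 of the group's counts and the other 3 libraries at most 0.18. Hbb-bt fell by 5.14 ± 0.91 on the log2 scale (edgeR adjusted p = 0.00447), a value that rests on that library.

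Alas2 had 1.23, 1.24, 0.819 and 1.39 CPM in irradiated libraries on the adequate diet, against 3.07, 8.90, 5.44 and 5.78 CPM in unirradiated ones. The irradiated libraries rested on 11.6, 3, 8 and 16.7 counts, and replicate 1 of the unirradiated group on 8. The groups did not overlap, and Alas2 fell by 2.35 ± 0.41 (edgeR adjusted p = 0.00154), a level 5.09-fold lower. In the supplemented groups Alas2 had 1.47, 1.25, 2.08 and 1.19 CPM in irradiated libraries and 3.24, 7.60, 6.07 and 2.04 CPM in unirradiated ones. Those irradiated libraries rested on 5, 18.6, 30.2 and 12.3 counts. The highest irradiated library reached just above the lowest unirradiated one, the only overlap between irradiated and unirradiated libraries among the 5 genes and both diets. Alas2 fell by 1.64 ± 0.38 there (edgeR adjusted p = 0.00899), a level 3.13-fold lower. Without overlap stood 5 of 5 genes on the adequate and 4 of 5 on the supplemented diet, where 10.1% and 9.25% of all tested genes were lower without overlap.

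**Figure D1:**
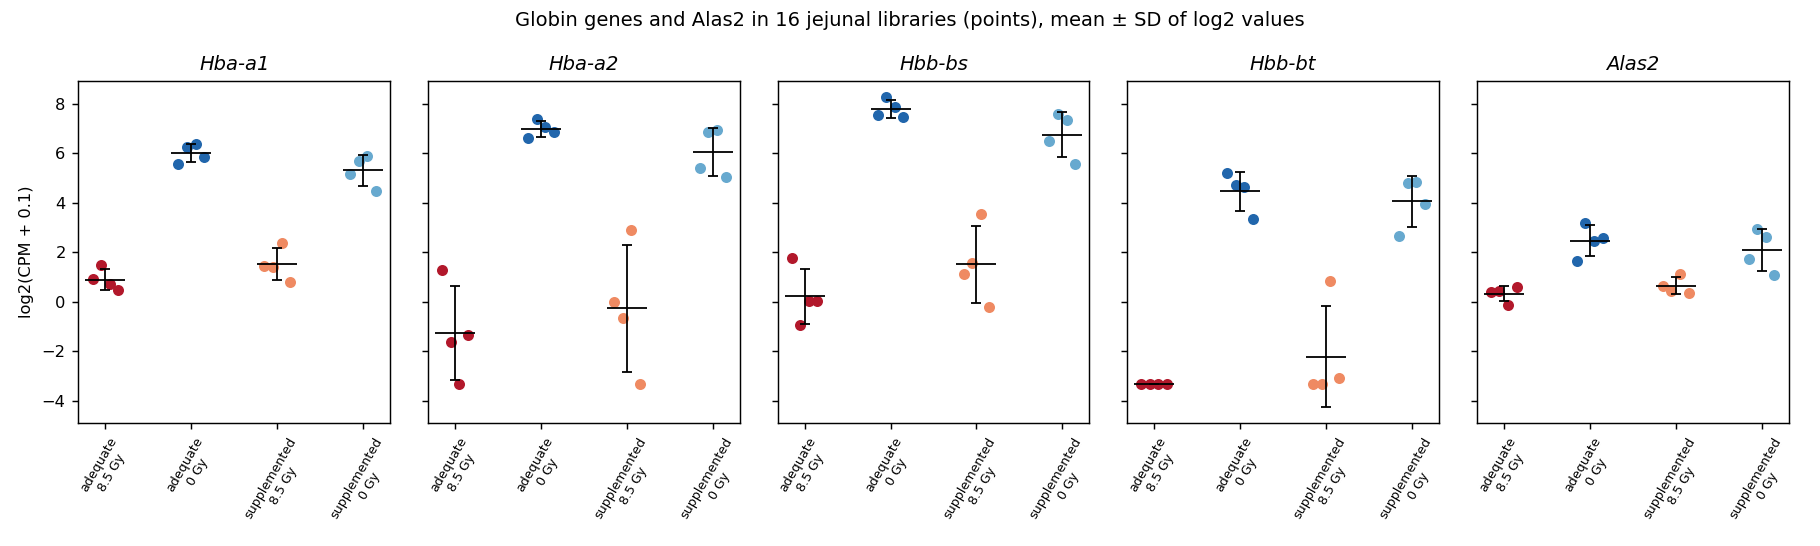
Level of each gene in every library, as log2(CPM + 0.1), by diet and dose. Points are libraries, and the bar and whiskers are the mean ± SD of the 4 log2 values; the irradiated groups lie below the unirradiated groups for every gene, and the 4 irradiated libraries on the adequate diet sit at 0 counts for Hbb-bt.

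All 5 falls stayed past the threshold without any 1 of the 16 libraries and without the 3 shallow ones. Ranked by log2 fold change among the 16558 genes on the adequate diet, Hbb-bt was first from the bottom by its fitted value, Hba-a2 was number 9, Hbb-bs 11, Hba-a1 17 and Alas2 101. On the supplemented diet Hbb-bt was number 10, Hba-a2 11, Hbb-bs 12, Hba-a1 22 and Alas2 214. Summed within pairs, so that the split between copies no longer matters, alpha globin fell by 6.31 and beta globin fell by 7.35 on the adequate diet (edgeR adjusted p = 8.34e-05 and 0.000147). With supplementation alpha globin fell by 4.44 and beta globin fell by 4.77 (edgeR adjusted p = 0.000328 and 0.000787).

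Together the 4 globin genes held 132 counts over the 4 irradiated libraries on the adequate diet, against 15907 counts over the 4 unirradiated ones. In the supplemented groups they held 510 counts in irradiated and 10336 counts in unirradiated libraries. Of the 510 counts, 377 came from replicate 3. As a share of a library's counts this was 0.00022 to 0.000685% in irradiated and 0.0376 to 0.0617% in unirradiated libraries on the adequate diet. It was 0.000212 to 0.00247% in irradiated and 0.0131 to 0.0427% in unirradiated libraries on the supplemented diet. Globin counts were thus a small part of every library.

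Compared per length, in the deposited TPM (transcripts per M), Hbb-bs led among unirradiated libraries. In unirradiated jejunum on the adequate diet the order was Hbb-bs at 178 ± 38.7, Hba-a2 at 91.6 ± 18, Hba-a1 at 57.6 ± 13.4, Hbb-bt at 13.4 ± 5.89 and Alas2 at 1.25 ± 0.515 TPM (SD, n = 4). The libraries of Hba-a2 and Hba-a1 overlapped slightly, between 70.9 and 73.2 TPM, and the other neighbours did not. Within each of these libraries Hba-a2 stood above Hba-a1. In irradiated jejunum on that diet Hba-a1 came first at 0.600 ± 0.225 TPM, before Hbb-bs at 0.532 ± 0.437, Hba-a2 at 0.240 ± 0.369 and Alas2 at 0.182 ± 0.033, with Hbb-bt listed at 0. These irradiated neighbours overlapped in their libraries, apart from Hbb-bt. Under supplementation the unirradiated order of the means was the same, from Hbb-bs at 82.9 ± 36 TPM to Alas2 at 1.03 ± 0.424 TPM. The ranges of the 3 most abundant genes overlapped between libraries. Within each library Hbb-bs stood above Hba-a2, and Hba-a2 stood above Hba-a1 except in replicate 1 (35.1 and 37 TPM). In irradiated libraries on this diet Hbb-bs led by its mean at 1.39 ± 1.53 TPM, with Hba-a1 at 0.890 ± 0.497 TPM.

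The make-up of the remaining globin signal can be read from the shares of the 4 genes. Hba-a1 made up 67.1% of the pooled alpha counts in irradiated against 33.8% in unirradiated libraries on the adequate diet. It made up 53.8% in irradiated and 35% in unirradiated libraries on the supplemented diet, and 85.4% of the irradiated counts without replicate 3. By library its share was 43.0 to 100% and 31.0 to 38.5% on the adequate diet, with irradiated libraries given before unirradiated ones, and 40.9 to 100% and 30.7 to 46% on the supplemented diet. The ratio of alpha to beta counts, pooled, was 1.54 in irradiated and 0.789 in unirradiated libraries on the adequate diet, and with supplementation it was 1.02 in irradiated and 0.849 in unirradiated libraries. With 8 to 70 globin counts in an irradiated library on the adequate diet and 19 to 377 on the supplemented diet, these shares are imprecise, and they were not tested.

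The fitted fall of Alas2 was smaller than that of each globin on either diet. Per 1000 TPM of the 4 globins, Alas2 stood at 87.6 to 176 TPM in irradiated and 2.13 to 5.70 TPM in unirradiated libraries on the adequate diet. With supplementation it stood at 35.3 to 163 TPM in irradiated and 4.30 to 6.37 TPM in unirradiated libraries. The libraries of the 2 doses lay apart on both diets. The lowest irradiated library was replicate 3 of the supplemented group, the one with the most globin RNA. Globin TPM is the divisor of this ratio, so more globin lowers it by construction. The ratio restates the larger fall of the globins and is not a separate result.

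The transcripts to which the Hba-a1 counts were assigned had another length in irradiated libraries. The files give a mean transcript length per gene, weighted by the estimated abundance of each transcript. For Hba-a1 it was 583 ± 86.8 bases in irradiated and 460 ± 2.63 bases in unirradiated libraries on the adequate diet, and 566 ± 92.8 and 457 ± 0 bases on the supplemented diet (SD, n = 4 each). The libraries of the 2 doses did not overlap on either diet, with a two-sided exact permutation p of 0.0286, the smallest that 4 against 4 libraries allow, and 0.114 after adjustment over 12 tests. The Hba-a1 transcripts of the GENCODE M21 annotation have 699 and 494 bases. The value of 699 was reached in 1 irradiated library of each diet. The unirradiated means lie below both lengths, so the transcript models of the files differ from those of GENCODE M21. The irradiated values rest on 6.46 to 16.8 counts a library on the adequate diet and on 8.98 to 74.8 on the supplemented diet. For Hbb-bs and Alas2 the mean length overlapped between doses on both diets, and its average was shorter after irradiation on each. Alas2 averaged 1164 ± 260 bases in irradiated and 1763 ± 255 bases in unirradiated libraries on the adequate diet. Hbb-bs averaged 493 ± 41.6 and 566 ± 19.8 bases on the supplemented diet. Both had an exact permutation p of 0.0571, adjusted 0.137. Hbb-bs on the adequate and Alas2 on the supplemented diet had 0.171 and 0.343 by that test, unadjusted.

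**Figure D2:**
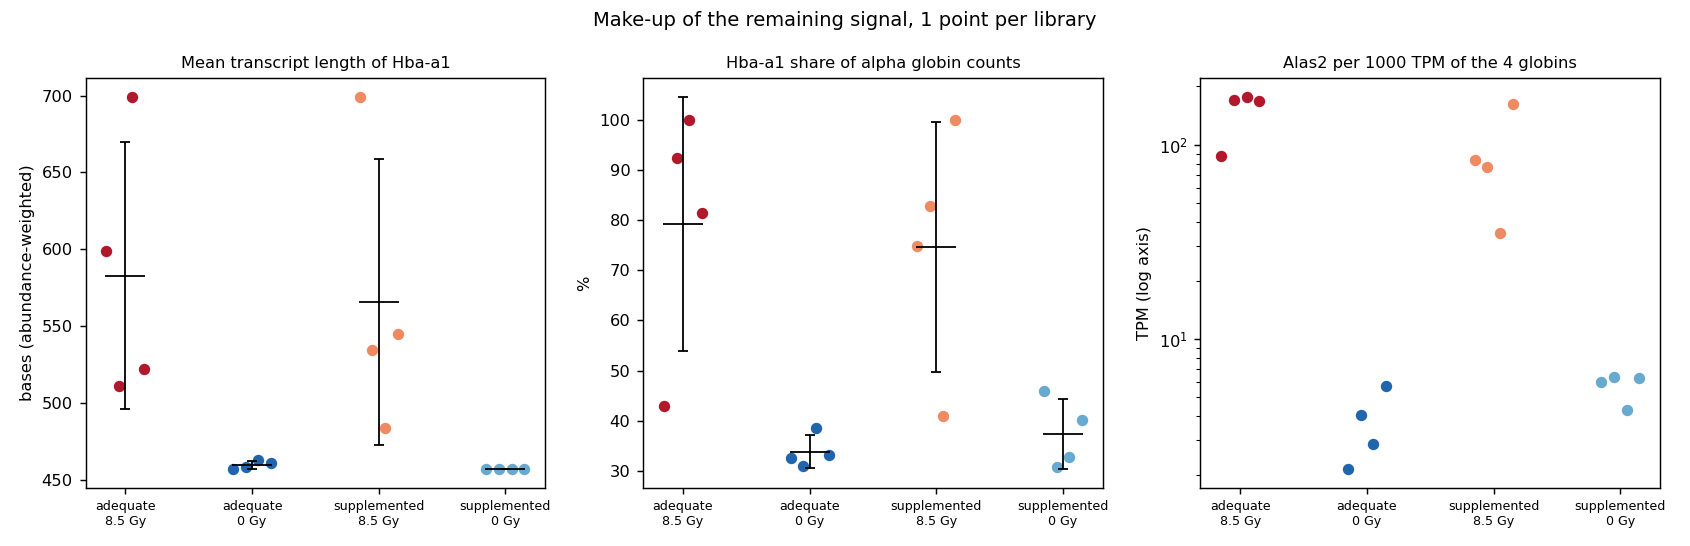
Make-up of the globin signal by library: mean Hba-a1 transcript length in bases, Hba-a1 as a percentage of alpha globin counts, and Alas2 TPM per 1000 TPM of the 4 globins on a log axis. Points are libraries, with mean ± SD in the first and second panels; irradiated libraries lie above unirradiated ones in length and in relative Alas2, while the Hba-a1 share overlaps between doses on the supplemented diet.

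Most other enzymes and carriers of heme synthesis were not called after irradiation. Of 14 other heme synthesis genes tested, 2 were called lower and 0 higher on each diet, with median log2 fold changes of -0.17 on the adequate and -0.09 on the supplemented diet. Ppox, protoporphyrinogen oxidase, was called lower on both diets. It averaged 13.3 ± 1.05 CPM in irradiated and 28.1 ± 1.53 CPM in unirradiated libraries on the adequate diet, a fall of 1.07 ± 0.16 (edgeR adjusted p = 0.000444), and it fell by 0.62 ± 0.15 on the supplemented diet (edgeR adjusted p = 0.0116). Alas1, the form of the first enzyme that other tissues use, averaged 95.2 ± 32.7 CPM in irradiated and 85.8 ± 12.5 CPM in unirradiated libraries on the adequate diet. Its log2 fold change was 0.15 ± 0.26 there and 0.21 ± 0.26 on the supplemented diet, neither called. Fech, ferrochelatase, the last enzyme of the pathway, had 0.05 ± 0.13 and -0.11 ± 0.13 on the 2 diets, and Slc25a37, mitoferrin-1, the mitochondrial iron importer of erythroid cells, had -0.13 ± 0.23 and 0.00 ± 0.23, none called. The uncalled genes of the list, Alad and Cpox at the ends, lay between -0.61 and 0.55.

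**Figure D3:**
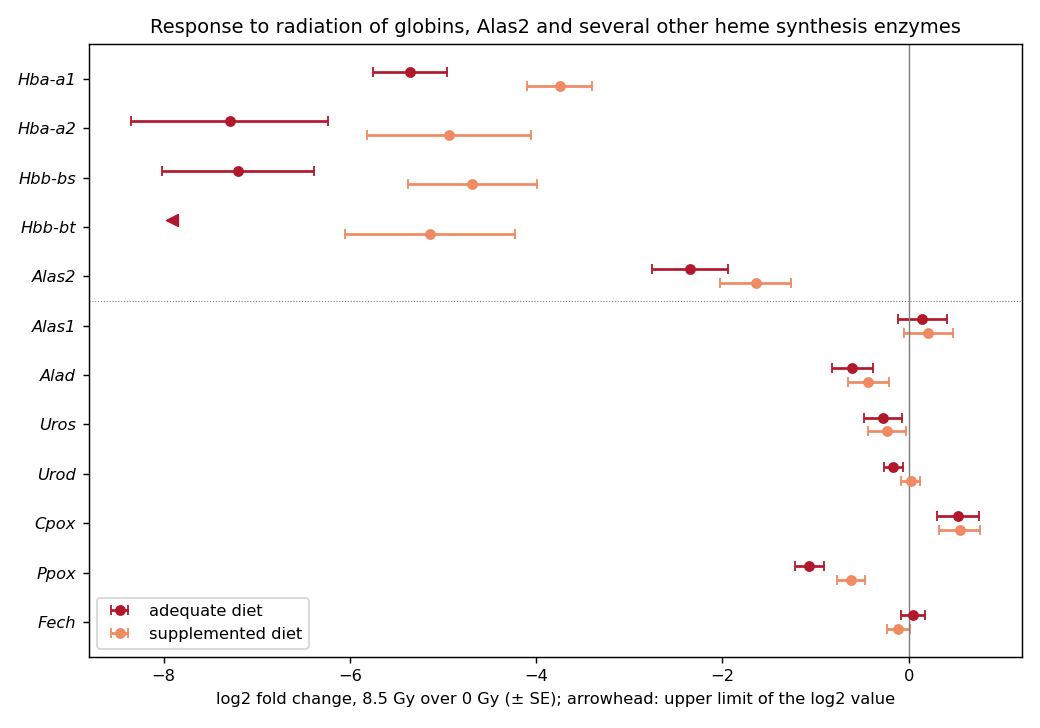
Response to 8.5 Gy of the 4 globins, Alas2 and several other enzymes of heme synthesis on each diet, as log2 fold change over 0 Gy with its standard error. The arrowhead marks the limit of -7.91 for Hbb-bt on the adequate diet, where all irradiated libraries were at 0; the 5 genes above the dotted line lie between -1.64 and that limit, and the enzymes below it between -1.07 and 0.55.

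The other globins and several genes that define red cells and their precursors were too low to test. The globin genes Hba-x, Hbb-y, Hbb-bh1 and Hbb-bh2 and the pseudogene Hbb-bh0 had 0 counts in all 16 libraries. Hbq1a and Hbq1b, theta globins, had 1 to 2 counts in 8 libraries of a dose. Slc4a1, the anion exchanger band 3 that defines the red cell membrane, had 0 counts in the 8 irradiated libraries and 35 counts spread over all 8 unirradiated ones, at least 12.2-fold lower with a limit of 3 counts over the pooled libraries. Gfi1b, a transcriptional repressor needed in the erythroid and platelet lineages, had 6 and 31 counts, Rhag 17.8 and 40.1, and Gata1, the erythroid master regulator, 6 and 13, each with irradiated libraries given before unirradiated ones. Klf1 had 24 counts in irradiated and 28 in unirradiated libraries and Epor, the erythropoietin receptor, 47 and 57. Other low genes of the lists went either way: Add2 had 40 counts in irradiated and 28 in unirradiated libraries, Rhd 6 and 3, and Trim58 8 and 5, while Tal1 had 42 and 50, Nfe2 44.1 and 51.1, and Trim10 3 and 4. Kel and Car1 had 0 in all libraries. None of these passed the filter on low counts.

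Most of the erythroid list genes with enough counts to test were not called. Over all tested genes, 7.13% were called higher and 6.58% lower on the adequate diet. On the supplemented diet these shares were 8.03% and 7.21%. Of 44 tested genes in 5 lists (other globins, heme synthesis, red cell surface, regulators and late erythroid genes), 2 were called higher and 5 lower on the adequate diet, and 3 higher and 7 lower on the supplemented diet. Their median log2 fold change was -0.07 on the adequate and -0.03 on the supplemented diet. Of 11 tested red cell surface genes only Aqp1, the water channel of red cells and endothelium, was called: it rose by 1.13 ± 0.27 on the adequate diet (edgeR adjusted p = 0.0101) and by 1.18 ± 0.27 on the supplemented diet (edgeR adjusted p = 0.00695). The other 10, Gypc, Epb42, Epb41, Sptb, Ank1, Ermap, Dmtn, Tmod1, Slc2a1 and Cd59a, were not called. Of 4 tested regulators, Zfpm1, the GATA1 partner FOG1, fell by 0.71 ± 0.11 on the supplemented diet (edgeR adjusted p = 0.000475). It fell by 0.34 ± 0.11 on the adequate diet (edgeR adjusted p = 0.044), a call that was lost without any of 11 libraries, with an adjusted p of up to 0.12.

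Among 16 tested late erythroid genes, Prdx2, an abundant red cell peroxidase, fell by 0.66 ± 0.12 on the adequate diet and by 0.53 ± 0.12 on the supplemented diet (edgeR adjusted p = 0.00204 and 0.00665). Bnip3l, which drives removal of mitochondria in reticulocytes, rose by 0.53 ± 0.12 and 0.49 ± 0.12 (edgeR adjusted p = 0.00962 and 0.0124). The mitochondrial carrier Slc25a39 fell by 0.42 ± 0.12 and 0.46 ± 0.12 (edgeR adjusted p = 0.0302 and 0.0191), and each call was lost without any of 5 libraries. Called on the supplemented and not on the adequate diet, with no test of the difference passed, were Isg20 at -1.71 ± 0.33, Ube2l6 at -0.88 ± 0.27 and Blvrb, biliverdin reductase B, at 0.63 ± 0.16 (edgeR adjusted p = 0.00291, 0.0403 and 0.0126). The call of Ube2l6 was lost without any of 10 libraries. Isg20 and Ube2l6 were highest in the unirradiated supplemented group. Isg20 averaged 5.05 ± 0.78 CPM there, 1.93 ± 0.96 CPM in the unirradiated adequate group, and 1.44 ± 0.56 and 1.27 ± 0.40 CPM in the irradiated supplemented and adequate groups. In the same order Ube2l6 averaged 86.8 ± 13.1, 59.8 ± 9.90, 46.7 ± 27.6 and 43.3 ± 5.75 CPM. Neither was called for diet in unirradiated tissue (edgeR adjusted p = 0.11 and 0.466). No gene of these lists was called for the interaction of diet and radiation.

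Genes that take up or break down heme moved in the other direction where they were called. Of 10 tested heme scavenging genes, 2 rose on the adequate and 3 on the supplemented diet, and 0 fell on either. Flvcr2, a membrane transporter linked to heme and choline, rose by 1.82 ± 0.50 on the adequate and 1.88 ± 0.49 on the supplemented diet (edgeR adjusted p = 0.0246 and 0.0178). Its calls were lost without any of 5 libraries on the adequate diet and without replicate 4 of the unirradiated group on the supplemented diet, where the adjusted p became 0.0579. Hmox1, heme oxygenase 1, averaged 3.46 ± 0.53 CPM in irradiated and 1.33 ± 0.56 CPM in unirradiated libraries on the adequate diet, a rise of 1.24 ± 0.35 (edgeR adjusted p = 0.0259) that was lost without any of 5 libraries. Under supplementation it had 0.85 ± 0.31 and was not called, while Blvrb and Cd163, the macrophage receptor for hemoglobin bound to haptoglobin, rose there by 0.63 ± 0.16 and 0.90 ± 0.25 (edgeR adjusted p = 0.0126 and 0.0236). The call of Cd163 was lost without any of 6 libraries.

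Of 15 genes of intestinal iron uptake, 2 rose and 2 fell on the adequate diet, and 1 rose and 2 fell on the supplemented diet. Cybrd1, the duodenal ferric reductase, rose on both diets, by 1.12 ± 0.22 and 1.08 ± 0.21 (edgeR adjusted p = 0.00407 and 0.00295). On the adequate diet Ncoa4 rose by 0.92 ± 0.26, and Ftl1 and Ankrd37 were the 2 that fell. Under supplementation Fth1, ferritin heavy chain, fell by 0.97 ± 0.29 (edgeR adjusted p = 0.0298), and Hfe was the other that fell. Apart from Cybrd1, each of these calls was lost when any of 5 or more single libraries was left out.

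Markers of other blood cells and of the vessels give the setting of the globin loss. The 5 genes summed to 3.28 to 8.62 CPM in irradiated and 365 to 591 CPM in unirradiated libraries on the adequate diet, and to 3.61 to 28.1 and 120 to 393 CPM on the supplemented diet. Over the same libraries the 15 endothelial genes summed to 324 to 469 CPM in irradiated and 326 to 412 CPM in unirradiated libraries on the adequate diet, and to 373 to 461 and 374 to 550 CPM on the supplemented diet. No endothelial gene was called on either diet, and the medians of the list were 0.08 and -0.17. The 15 jejunal epithelial genes summed to 16859 to 44153 CPM in irradiated and 29676 to 37474 CPM in unirradiated libraries on the adequate diet, and to 15320 to 55193 and 27691 to 36554 CPM on the supplemented diet, with 1 of 15 called lower on the adequate diet (Cdx2, lost without any of 5 libraries) and 0 on the supplemented diet. The part that a change in blood volume, vessels or epithelium has in the globin values was not tested.

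No platelet gene was called lower. Of 8 tested, 4 were called higher on the adequate and 2 on the supplemented diet. Itga2b, Gp1ba, Alox12 and Itgb3 were called on neither diet. They stood at -0.04, -0.22, -0.32 and 0.28 on the adequate diet, and at -0.53, -0.01, -0.28 and 0.03 on the supplemented diet. Pf4, platelet factor 4, averaged 2.34 ± 0.68 CPM in irradiated and 0.904 ± 0.165 CPM in unirradiated libraries on the adequate diet, a rise of 1.24 ± 0.27 (edgeR adjusted p = 0.00708), and it rose by 2.03 ± 0.27 on the supplemented diet (edgeR adjusted p = 0.000163). Ppbp, the platelet chemokine CXCL7, rose by 2.94 ± 0.72 and 3.64 ± 0.58 (edgeR adjusted p = 0.0127 and 0.000662), the first lost without replicate 1 of the irradiated group at an adjusted p of 0.0514. Its values rest on 24 counts in irradiated and 3 in unirradiated libraries on the adequate diet, and on 72 and 5 on the supplemented diet. The other 2 calls on the adequate diet, those of Gp1bb and Clec1b, were each lost without any of 4 or more libraries.

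White cell markers moved in both directions. Of 12 tested monocyte and macrophage genes, 4 rose on each diet, Lyz2, Mrc1, Itgam and Cd14, and 1 fell on the supplemented diet, Spic. The call of Cd14 on the adequate diet was lost without any of 8 libraries, and that of Spic without any of 7. Lyz2, lysozyme 2, rose by 1.16 ± 0.27 and 1.68 ± 0.27 (edgeR adjusted p = 0.00921 and 0.000743). Of 5 tested neutrophil genes, Mmp9 rose on both diets, by 2.05 ± 0.20 and 2.42 ± 0.19 (edgeR adjusted p = 1.17e-05 and 1.17e-06), and Cxcr2 fell by 0.61 ± 0.13 on the supplemented diet (edgeR adjusted p = 0.00574). All 6 tested B cell genes fell on the adequate diet and 2 of 6 on the supplemented diet, with list medians of -1.59 and -0.85. On the adequate diet the calls of Cd79b and Fcer2a were each lost without any of 11 libraries and that of Cd22 without any of 5, while those of Cd79a, Jchain and Mzb1 held. On the supplemented diet the call of Cd79a was lost without any of 6 libraries. Jchain, the joining chain of secreted antibodies, fell by 1.5 ± 0.26 and 0.90 ± 0.26 (edgeR adjusted p = 0.00154 and 0.0265), the second lost without any of 4 libraries.

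**Figure D4:**
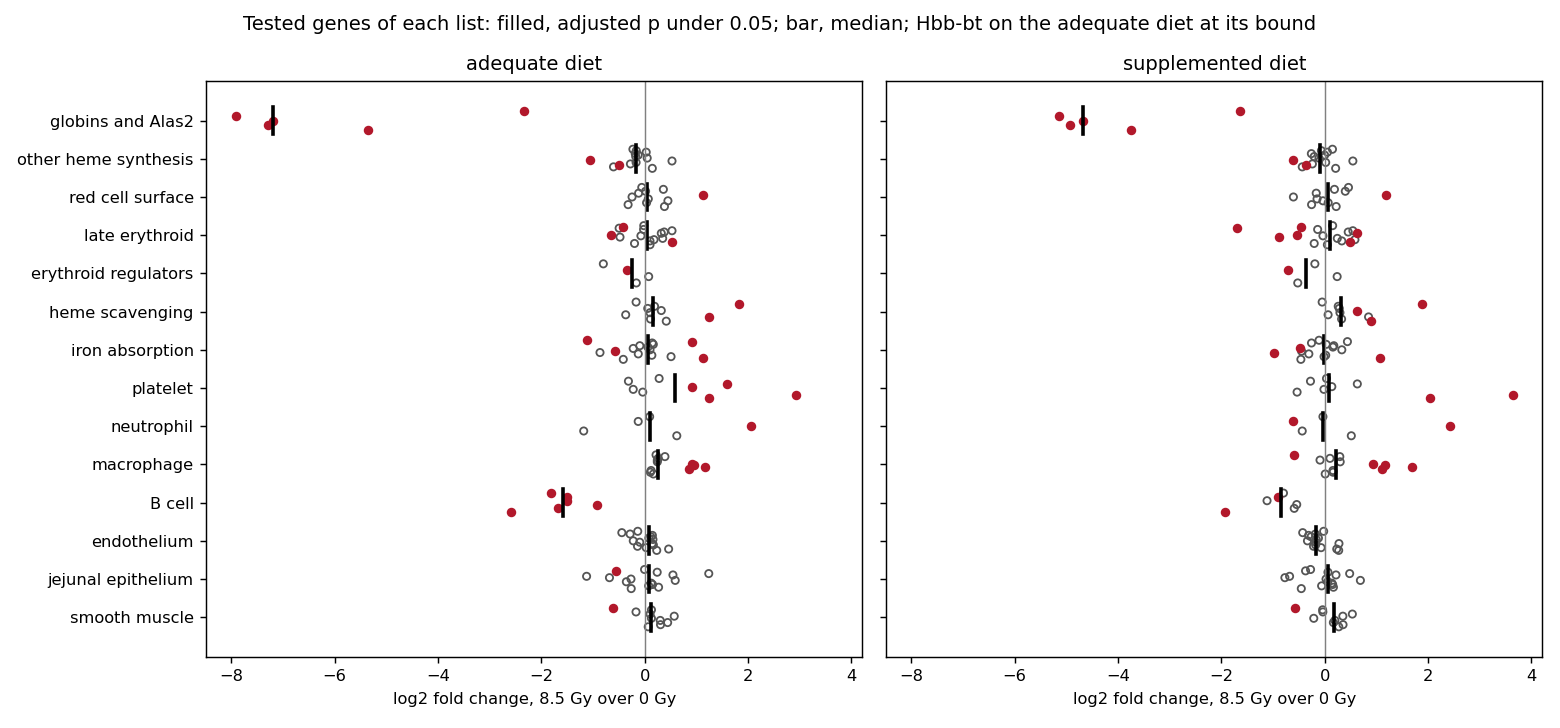
Log2 fold change of 8.5 Gy over 0 Gy for every tested gene of each list, by diet. Filled points passed an adjusted p under 0.05, black bars are list medians, and Hbb-bt on the adequate diet is drawn at its limit of -7.91; the 4 globins lie left of every other point on both diets, and platelet, neutrophil and macrophage points reach to the right.

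Diet changed none of the 5 genes past the threshold. In unirradiated jejunum the supplemented diet gave log2 differences of -0.65 ± 0.29 for Hba-a1, -0.72 ± 0.69 for Hba-a2, -0.90 ± 0.57 for Hbb-bs, -0.28 ± 0.64 for Hbb-bt and -0.35 ± 0.35 for Alas2 against the adequate diet. All were negative and 0 of 5 were called, by edgeR, DESeq2 or limma voom, where edgeR called 0.199% of all genes. Of the 5 only Hba-a1 had an unadjusted p under 0.05 (0.0374; edgeR adjusted p = 0.382), as did 11.9% of all genes. The libraries of the 2 diets overlapped for each gene. For Hbb-bs, for example, they ran from 47.7 to 191 CPM on the supplemented and from 178 to 313 CPM on the adequate diet. The mean Hbb-bs transcript length was 566 ± 19.8 bases on the supplemented and 508 ± 9.65 bases on the adequate diet (SD, n = 4 each). These libraries did not overlap (two-sided exact permutation p = 0.0286, adjusted over 12 tests 0.114).

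In irradiated jejunum the differences between the diets had the opposite sign, at 0.96 ± 0.45 for Hba-a1, 1.64 ± 1.21 for Hba-a2, 1.62 ± 0.81 for Hbb-bs and 0.35 ± 0.44 for Alas2, supplemented over adequate. None was called, none had an unadjusted p under 0.05, which 5.26% of all genes had, and edgeR called 0% of genes here. Hbb-bt had 24.4 counts in the supplemented and 0 in the adequate group, nearly all from 1 library, so no fold is given. Without that library, replicate 3 of the supplemented group, Hba-a1 stood at 0.47, Hbb-bs at 0.34 and Alas2 at 0.10, and Hba-a2 turned to -1.04.

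The interaction, which asks whether the response to radiation differed between diets, called none of the 5 genes and 0% of all genes. The estimates were positive, that is, the fall was smaller on the supplemented diet: 1.61 ± 0.54 for Hba-a1, 2.36 ± 1.39 for Hba-a2, 2.52 ± 0.99 for Hbb-bs and 0.70 ± 0.56 for Alas2. Hba-a1 and Hbb-bs had unadjusted p-values of 0.00882 and 0.0238 and edgeR adjusted p-values of 0.967 and 1, and 4.46% of all genes had an unadjusted p under 0.05. Without replicate 3 of the irradiated supplemented group the estimates were 1.12 for Hba-a1, 1.24 for Hbb-bs and -0.32 for Hba-a2. A smaller fall on the supplemented diet was therefore not shown for these genes.

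Over the 8 unirradiated libraries the 5 genes varied together to different degrees. The correlation of a gene's log2 CPM with the mean of the other 4 was 0.978 for Hba-a2, 0.932 for Hbb-bs, 0.894 for Hba-a1, 0.791 for Alas2 and 0.500 for Hbb-bt. These libraries share 2 diets, and copies within a pair share reads. Of 13437 other genes, those whose log2 CPM was most like the mean of the 5 over the same 8 libraries were Zbtb44 (Pearson r = 0.966), mt-Co3 (0.937), Kat8 (0.932), Ezh2 (0.929), the small nucleolar RNA gene Gm24016 (0.929) and Prrc2b (0.919). None of these 6 fell after irradiation: mt-Co3 and Gm24016 were called higher on both diets, Zbtb44 on the supplemented diet, and the others were not called. With 8 libraries and so many genes ranked, these values are a description only.

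Other genes also fell steeply on both diets. The 6 called genes outside the 5 whose smaller fall was largest were the processed pseudogene Gm14539, Apoa2, the small nuclear RNA gene Gm23240, Nr0b2, Mcpt1 and H2-Q10. Apoa2, apolipoprotein A-II, averaged 2.46 ± 0.70 CPM in irradiated and 64.5 ± 34.8 CPM in unirradiated libraries on the adequate diet. It fell by 4.79 ± 0.56 there and fell by 3.75 ± 0.52 on the supplemented diet (edgeR adjusted p = 0.000139 and 0.000482), close in size to the fall of Hba-a1. Mcpt1, a protease of mucosal mast cells, fell by 2.22 ± 0.42 and 3.14 ± 0.41 (edgeR adjusted p = 0.00263 and 0.000152), and Nr0b2, a nuclear receptor without a DNA-binding domain, fell by 2.27 ± 0.59 and fell by 2.86 ± 0.60 (edgeR adjusted p = 0.0193 and 0.00527).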

How the data were processed

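RNA of 16 proximal jejunum libraries was compared by diet and dose. The rRNA was depleted and the rest fragmented and built into libraries by a small RNA protocol, per the labels' protocols. The submitters' processing notes name Bowtie2 2.2.9, RSEM 1.3.0, edgeR 3.2.4 and the build NCBIM37. The deposited values are RSEM expected counts per gene and, per the file headers, TPM and a mean transcript length. Counts were rounded to whole numbers for the fits, while printed counts, CPM and shares are of the values as deposited. Reads that match several genes are divided between them by RSEM. Symbols matched 32897 of 37620 gene IDs. GENCODE M21 and RefSeq on GRCm38.p6 gave transcript and promoter sequence; positions in them belong to that build and not to the files' build.

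Genes were filtered with filterByExpr, scaled by TMM and fitted over all 16 libraries in edgeR 4.0.16 (R 4.3.3) with a mean per group, robust dispersions and the two-sided quasi-likelihood F test, checked on simulated data. The common biological coefficient of variation was 0.219. The Benjamini-Hochberg adjustment ran over all tested genes of a comparison, with a threshold of 0.05. The SE of a fold change was its size over the root of F. Alternatives were DESeq2 1.42.0, limma voom 3.58.1, other scalings and filters, 2 groups fitted alone, libraries left out, paired genes summed, and TPM. Mean lengths were compared by exact permutation.

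Depth was 2.57 to 15.51 M counts per library, and limits for 0 counts (3 counts) cover counting error only. Groups came from the labels, which give no replicate numbers; numbers follow deposit order. The 5 genes, the gene lists and the tests were chosen with earlier results of these data known. Named genes are the 5, every gene of the erythroid lists, the 2 with the smallest p of each other list, 6 by likeness in unirradiated libraries (mean log2 CPM of at least 1), and 6 by the smaller of the falls on the 2 diets; some are not reported here. A gene named only because it belongs to a small count was chosen after its value was seen. FPKM values were not used.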

Additional observations from a re-analysis of the deposited data

Results flagged for a closer look

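In 8 of the 48 groups of 4 libraries examined for levels, ratios and lengths of the 5 genes, 1 library stood apart from the other 3 by Dixon's criterion; chance alone flags about 1 in 20 groups. For Hba-a2, replicate 1 of the irradiated group on the adequate diet had 2.35 CPM where the others had at most 0.293 CPM. Replicate 3 of the irradiated group on the supplemented diet had 7.45 CPM of Hba-a2, where the others had at most 0.886 CPM, and 1.67 CPM of Hbb-bt, where the others had at most 0.0174 CPM. The ratio of alpha to beta counts was 7 in replicate 2 of the irradiated group on the adequate diet, a library with 8 globin counts in all. Alas2 per 1000 TPM of globin was lowest, at 87.6 TPM, in replicate 1 of the irradiated group on the adequate diet, and at 4.30 TPM in replicate 3 of the unirradiated group on the supplemented diet. The mean Alas2 transcript length was 1552 bases in replicate 4 of the irradiated group on the adequate diet, above the other 3, and 1383 bases in replicate 4 of the unirradiated group on that diet, below the other 3.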

How the results depend on the processing

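No paired analysis was possible because the labels give no replicate numbers. All 5 genes remained called lower on both diets, and none for diet or the interaction, under each of the 26 alternatives (25 for the interaction). Estimates reversed in 3 cases. Without replicate 3 of the irradiated supplemented group, Hba-a2 stood at -1.04 for diet after irradiation and -0.32 for the interaction, in ranges up to 3.53 and 4.25 over single libraries left out. Without replicate 1 of the unirradiated supplemented group, Hbb-bt stood at 0.014 for diet, in a range from -0.55. With TPM in place of CPM, log2 ratios of mean levels on the adequate diet moved to -6.58 for Hba-a1, -8.58 for Hba-a2 and -8.39 for Hbb-bs. On the supplemented diet they moved to -5.35 for Hba-a1, -6.46 for Hba-a2, -5.90 for Hbb-bs, -6.83 for Hbb-bt and -2.58 for Alas2, and the alpha to beta ratio of its unirradiated group to 0.977. The cause was not tested. Pooled shares with single libraries left out were added after the data were seen: the Hba-a1 share of alpha counts then ran from 47.6 to 85.4% in the irradiated supplemented group and from 59.6 to 90.1% in the irradiated adequate group.

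Over all genes, library totals alone gave 614 higher and 2258 lower calls on the adequate diet, against 1180 and 1090, and 671 higher and 2959 lower on the supplemented diet, against 1329 and 1194, with the median gene at -0.16 and -0.20. An adjusted p under 0.01 left 871 and 1042 calls of 2270 and 2523. Without the 3 shallow libraries 1438 and 1927 were left, and Aqp1 was no longer called on the adequate diet (edgeR adjusted p = 0.0572). Leaving out single libraries gave 1231 to 2787 calls on the adequate and 1434 to 3627 on the supplemented diet. For diet in unirradiated tissue, calls numbered 226 by DESeq2, 52 by voom, 139 with 2 groups alone and 0 to 118 without single libraries, against 33. DESeq2 called 11 genes for diet after irradiation and 2 for the interaction. Depth limits the low genes: 8 to 70 globin counts stood in an irradiated library on the adequate diet.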
